A study of Mus musculus with 2 samples.

Results

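Wnt ligands, receptors, antagonists and feedback targets were examined on 2 mouse expression arrays of ATDC5 cells, a chondrogenic cell line. Members were all genes with a symbol of the Wnt, Fzd, Sfrp, Dkk or Nkd families, together with Lrp5, Lrp6, Axin1, Axin2, Lef1, Tcf7, Lgr4, Lgr5, Lgr6, Rnf43, Znrf3, Wif1, Apcdd1, Notum, Sp5 and Ctnnb1. In all, 54 of 18193 measured genes were members, read by 111 of 45037 probe sets, and Tcf7 was not analysed here. A probe set is a group of short probes for the same transcript, and the probe set whose 2 signals had the highest mean stands for its gene.

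The cells of both groups were starved of serum and were given cycloheximide (CHX), which blocks protein synthesis, for 30 min at 10 µg/ml. The CHX+PBS group then received PBS as the control, and the CHX+Nell-1 group received recombinant human Nell-1, a secreted protein, at 100 ng/ml, each for another 30 min. The series was made to find genes that respond to Nell-1 without newly made protein. Each group is 1 array, so no replicate, test or p-value stands behind any ratio below, and each ratio compares 1 RNA sample with 1 other. All values are deposited signals on a linear scale, and ratios are log2 of the CHX+Nell-1 signal over the CHX+PBS signal. Because these are bulk RNA samples, fewer cells expressing a gene and less RNA per cell cannot be told apart.

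Wnt proteins are secreted lipid-modified ligands that bind Frizzled receptors together with the co-receptors Lrp5 or Lrp6. In the canonical branch this stops a complex built on Axin from marking beta-catenin for degradation, and beta-catenin then acts in the nucleus with Lef1 and Tcf factors. Secreted inhibitors such as Sfrp and Dkk proteins act outside the cell, while Axin2, Nkd1, Nkd2, Notum, Rnf43, Znrf3 and Apcdd1 are known as feedback inhibitors. Lgr4, Lgr5 and Lgr6 bind R-spondins and thereby protect Frizzled receptors from the ubiquitin ligases Rnf43 and Znrf3. In the growth plate, Wnt signals are known to influence how chondrocytes form, divide and mature.

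The cells carried mesenchymal transcripts and most of the listed cartilage transcripts. All 7 mesenchymal markers and 8 of 10 chondrogenic markers lay above the median of the mean signal (64.3), among them Sox9, the master chondrocyte factor, at 3375 and 2577, and Col2a1, which encodes cartilage collagen, at 909 and 1206, with PBS and Nell-1. None of 4 endothelial markers, 1 of 4 epithelial markers (Epcam) and 3 of 5 haematopoietic markers (Cd68, Cd14, Csf1r) did so. That level was passed by 11600 of all 18193 genes, so passing it says little about cell type. The chondrogenic markers Matn1 (45.7 and 24.7) and Comp (28.5 and 6.35) lay below it. Above the 75th percentile of signal, where 7144 genes lay, were all 7 mesenchymal markers, 3 chondrogenic markers and no marker of the other lists. The summed signals of the mesenchymal markers were 174272 with PBS and 152543 with Nell-1, and those of the chondrogenic markers 6097 and 5774. Control RNAs differed between the arrays. All 24 poly-A spike-in probe sets, for bacterial RNAs added before labelling, were lower after Nell-1, at a median log2 ratio of -0.49, and all 18 hybridisation spike-ins had a median of -0.18. The 3'-to-5' signal ratio of Gapdh, a measure of RNA integrity, was 0.848 with PBS and 0.858 with Nell-1, and that of Actb was 1.32 and 1.28. What part the spike-in difference has in the ratios of the members was not tested.

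Most Wnt members that could be measured had lower signals with Nell-1. Above the median signal lay 39 of the 54 members, and 32 of these had a lower signal with Nell-1, against 54.2% of the 11600 genes above that level. The difference reached 1.5-fold, the threshold the submitters state, in 10 of 39 members in the lower direction, where 7.53% of genes did so, and in 1 member in the higher direction, where 4.56% did so. Of the 39, Fzd10, Lrp5 and Wnt7a passed the signal filter through the PBS array alone, being below it with Nell-1, so that for these 3 the direction follows from the filter. Of all 11600 genes, 404 passed it through the PBS array alone and 192 through the Nell-1 array alone, so the shares of all genes hold such genes too. The median log2 ratio of the 39 members was -0.42, and that of all genes above the median signal was -0.03. Rescaling each array to its own median moved the median of all genes from -0.03 to 0.12, and with it the split of all genes past 1.5-fold from 529 higher and 874 lower to 1041 higher and 545 lower. After that rescaling the members had a median of -0.27, with 28 of 39 below 0, 4 at least 1.5-fold lower, where 4.70% of genes were, and 1 higher, where 8.98% were. The distance between members and all genes was -0.39 on the log2 scale both before and after it. This is no check of the shift, because the rescaling moves every log2 ratio by the same amount. At a 2-fold threshold 2 members were lower (Wnt7a and Wnt7b), where 2.33% of genes were, and none was higher, where 0.784% were.

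**Figure D1:**
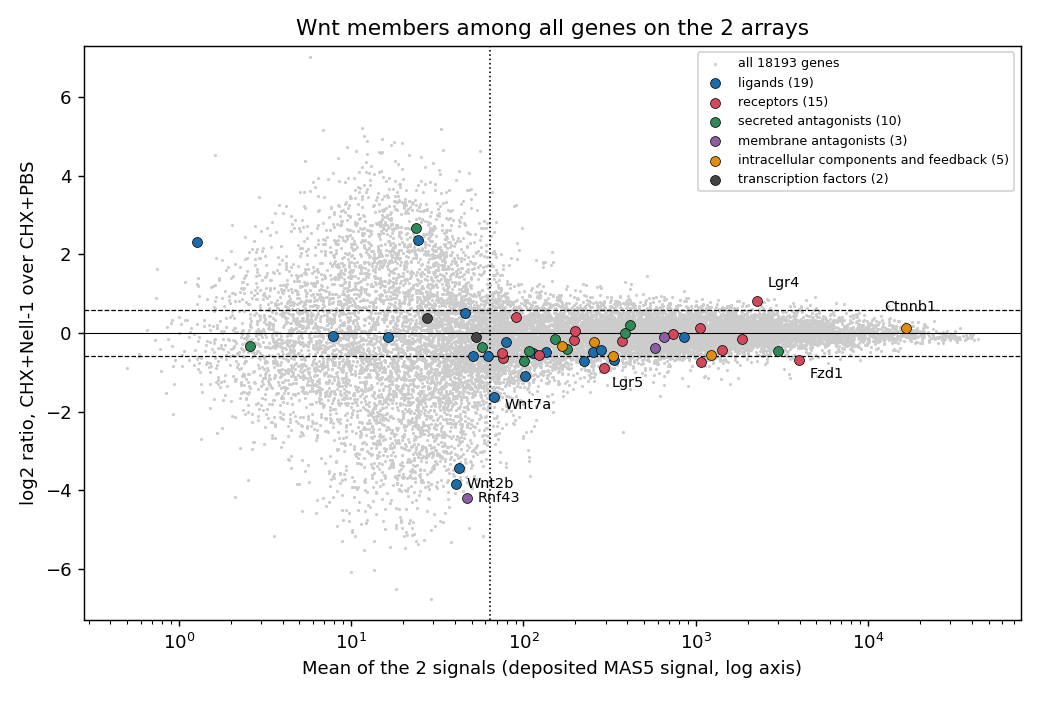
Log2 ratio of CHX+Nell-1 over CHX+PBS (vertical axis) against the mean of both signals (horizontal log axis) for all 18193 genes in grey and the 54 Wnt members in colour by role. Dashed lines mark 1.5-fold and the dotted line the median signal of 64.3. To the right of it most coloured points lie below 0, with Lgr4 above the upper dashed line, and to its left the ratios of all genes scatter widely.

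Of the 54 members, 26 lay at intermediate signals, 13 higher and 15 below the median. In the 4456 genes between the median and the 75th percentile of signal (64.3 to 432), the robust SD of the log2 ratio across genes was 0.48, a value that mixes noise with real differences. The 26 members in that range had a median of -0.47 beside -0.10 for all genes there, with 8 members at least 1.5-fold lower and none higher, while 16.5% of genes there were lower and 8.48% higher. The 26 include Fzd10, Lrp5 and Wnt7a, whose lower direction follows from the signal filter, and the 8 include Fzd10 and Wnt7a. Among brighter genes the robust SD was 0.26. The 13 members in that range had a median of -0.15 beside -0.01, with 2 lower (Fzd1 and Fzd8) and 1 higher (Lgr4), where 1.96% of genes were lower and 2.11% higher. Below the median signal 67.3% of genes passed 1.5-fold in either direction, so ratios there carry little information. Of the 15 members below it, 5 were at least 1.5-fold lower and 3 higher, beside 39.2% and 28.1% of all genes in that range.

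**Figure D2:**
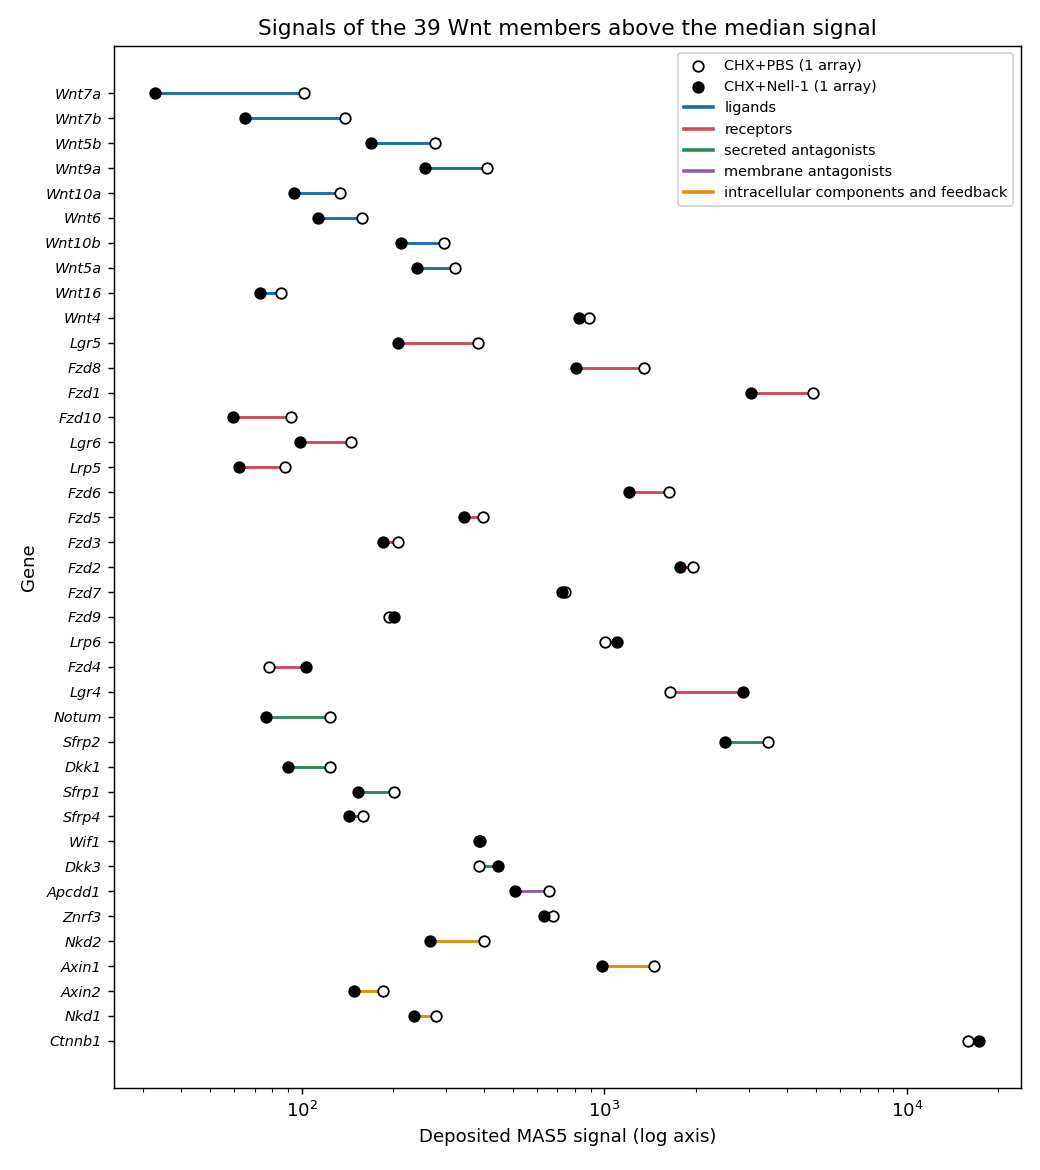
Deposited signals (horizontal log axis) of the 39 Wnt members above the median signal, 1 gene per line, with CHX+PBS as open and CHX+Nell-1 as filled points, 1 array each. Line colours give the role. For all 10 ligands the filled point lies to the left, while Lgr4, Fzd4, Lrp6, Fzd9, Dkk3, Wif1 and Ctnnb1 have it to the right. For Wnt7a, Fzd10 and Lrp5 the direction follows from the signal filter. Signals of different genes come from different probes and do not rank their transcripts.

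The promoters of 4 members past 1.5-fold are shown first, to set the receptor that was higher beside a receptor, a feedback gene and a ligand that were lower on more than 1 probe set. RefSeq sequences (build GRCm38.p6) of the 250 bases before the transcription start, read in the direction of the gene, were found for 35 of the 54 members. Lgr4, the R-spondin receptor with a higher signal, starts after chr2:109917397-109917646 on the plus strand. Fzd1, a Frizzled receptor lower on both of its probe sets, starts after chr5:4758217-4758466 on the minus strand. Nkd2, a feedback antagonist lower on all 4 of its probe sets, starts after chr13:73847632-73847881 on the minus strand. For Wnt5b, a ligand lower on both probe sets, 1 of its 3 start windows is shown, chr6:119449387-119449636 on the minus strand. Capitals mark a match to the core sequence recognised by Tcf and Lef factors.
Lgr4: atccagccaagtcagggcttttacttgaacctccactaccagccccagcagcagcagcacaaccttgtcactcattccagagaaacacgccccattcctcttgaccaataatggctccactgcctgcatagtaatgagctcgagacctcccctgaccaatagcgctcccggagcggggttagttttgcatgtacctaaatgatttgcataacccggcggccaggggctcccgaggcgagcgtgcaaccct
Fzd1: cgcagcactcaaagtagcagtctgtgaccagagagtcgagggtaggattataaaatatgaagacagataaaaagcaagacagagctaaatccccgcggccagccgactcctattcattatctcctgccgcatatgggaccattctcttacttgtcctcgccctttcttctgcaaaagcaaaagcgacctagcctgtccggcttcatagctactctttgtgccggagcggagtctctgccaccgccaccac
Nkd2: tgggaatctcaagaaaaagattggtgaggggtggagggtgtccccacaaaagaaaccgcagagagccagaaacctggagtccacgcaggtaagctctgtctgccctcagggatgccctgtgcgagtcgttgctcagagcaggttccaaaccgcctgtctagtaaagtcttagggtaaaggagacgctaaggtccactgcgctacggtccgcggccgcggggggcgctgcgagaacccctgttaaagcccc
Wnt5b: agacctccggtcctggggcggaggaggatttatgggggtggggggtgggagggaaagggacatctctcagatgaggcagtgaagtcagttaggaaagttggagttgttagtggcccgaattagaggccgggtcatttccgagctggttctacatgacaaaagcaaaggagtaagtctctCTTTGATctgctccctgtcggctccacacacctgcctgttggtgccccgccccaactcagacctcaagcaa

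The motif searched was CTTTG followed by a pair of bases that are each A or T, on either strand, with overlaps with other motifs not considered. The shown Wnt5b window, chosen for it, holds 1 match, while the other 2 Wnt5b windows and those of Lgr4, Fzd1 and Nkd2 hold none. Over the members past 1.5-fold, 1 of 9 windows (11.1%) held a match. Over the members, 6 of 43 start windows (14.0%) held a match, beside 14.8% of 32851 windows of the same length for all genes. The windows of members were richer in G and C, with a median of 65.2% beside 52.4%. Matches are letters in a window and were not tested for binding.

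Among the ligands, all 10 of 19 Wnt genes above the median signal had lower signals with Nell-1, with log2 ratios from -1.63 to -0.10 and a median of -0.49. For Wnt7a, at -1.63, the direction follows from the signal filter, which it passed through the PBS array alone. Of the 10 ligands, 4 were at least 1.5-fold lower, Wnt7a among them, beside 7.53% of all genes above the median signal and 16.5% of those between it and the 75th percentile. After median rescaling 9 of 10 were below 0 and 2 at least 1.5-fold lower, where 4.70% of all genes were, with Wnt4 at 0.05. Wnt7a, a ligand of limb and nervous system patterning, had signals of 102 (PBS) and 32.9 (Nell-1), a 3.10-fold lower level. The Nell-1 signal of Wnt7a lay below the median signal, and its other probe sets, both dim, gave log2 ratios of 0.99 and -1.59. Wnt7b, known for roles in lung and bone formation, went from 139 to 64.9, or 2.14-fold lower. Its second probe set was dim and also lower, at 38.5 and 21.9.

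Wnt5b, a noncanonical ligand expressed in growth plate cartilage, was 1.62-fold lower, with signals of 276 (PBS) and 170 (Nell-1). Its second probe set gave 201 and 112, a log2 ratio of -0.85, so both readings of this transcript were lower; both probe sets are of the type that can be shared between transcripts. Wnt9a, a ligand needed for joint formation, went from 411 to 256, 1.61-fold lower. Its second probe set was near the bottom of the signal range, at 9.38 and 7.73.

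The 6 other ligands in this signal range differed by less than 1.5-fold. Wnt10a (134 and 94.6), Wnt6 (158 and 113) and Wnt10b (296 and 213), which are canonical ligands, had log2 ratios of -0.50, -0.48 and -0.48. A very dim second probe set of Wnt6 went the other way, at 6.23 and 23.6, and the mean over both was past 1.5-fold higher. Wnt5a, the best known noncanonical ligand, had signals of 321 and 240 and a log2 ratio of -0.42, with -0.29 on a second probe set. Wnt16, linked to cortical bone, was at -0.23. Wnt4, which promotes chondrocyte maturation, read 887 and 825 and differed least of the 10, at -0.10 on this probe set and -0.01 on its second.

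The 9 ligands below the median signal had signals between 0.424 and 77.3. Of these, 4 were at least 1.5-fold lower (Wnt2b, Wnt8a, Wnt9b, Wnt11), 2 higher (Wnt3, Wnt8b) and 3 neither (Wnt1, Wnt2, Wnt3a). Below the median signal 39.2% of all genes were lower and 28.1% higher by as much. Wnt11, the brightest of these ligands, was at 74.8 with PBS and 49.6 with Nell-1, and Wnt9b was at 61.5 and 40.7. The steepest ratio among these ligands was that of Wnt2b, at 76.4 with PBS and 5.32 with Nell-1, or -3.84 on the log2 scale. Over all genes below the median signal the log2 ratios ran from -6.77 to 7.01, with a robust SD of 1.45. Ratios at such signals carry little information. Some ligands are direct neighbours on their chromosome. Wnt6 and Wnt10a, the pair with both members above the median signal, had log2 ratios of -0.48 and -0.50. The pairs Wnt3a with Wnt9a, Wnt9b with Wnt3, and Wnt10b with Wnt1 each had a member below it.

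The receptors differed in both directions. All 15 lay above the median signal, with a median log2 ratio of -0.21, 4 at least 1.5-fold lower, 1 higher and 10 neither. Among all genes above it 7.53% were lower and 4.56% higher by as much. With median rescaling the receptors stood near 0, at -0.05. Of them, 2 were then lower and 1 higher, beside 4.70% and 8.98% of all genes. The Lgr family, receptors for R-spondins, held the highest and the lowest ratio of the group. The signal of Lgr4 was 1642 with PBS and 2877 after Nell-1, a 1.75-fold higher level. It was higher under all 3 rescalings, with log2 ratios from 0.79 to 0.96. A dim second probe set was lower, at 42.7 and 18.7, so that the mean over both turned to -0.19.

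Lgr5, a stem cell marker and itself a Wnt target, went from 382 to 208, 1.84-fold lower. Its second probe set was dim and lower too, at 18.3 and 9.27. Lgr6 was unsettled, because its brightest probe set gave 146 and 99.0, or -0.56 on the log2 scale, and its second gave 51.0 and 77.5, a ratio of 0.60. The second passed the signal filter through the Nell-1 array alone, which fixes its direction.

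Of the 10 Frizzled receptors 3 were lower by 1.5-fold or more and none was higher by as much, beside 7.53% and 4.56% of all genes. The family median was -0.19 as deposited and -0.04 with median rescaling. Fzd1, which binds canonical Wnt ligands, had the signals 4887 (PBS) and 3038 (Nell-1) and was 1.61-fold lower. The second Fzd1 probe set gave 511 and 284, a log2 ratio of -0.85, in the same direction. Fzd8 went from 1349 to 808, 1.67-fold lower, with a second, dimmer probe set at 71.8 and 52.6. Fzd10 was near the median signal, at 92.0 and 59.2, 1.55-fold lower. It passed the signal filter through the PBS array alone, so its direction follows from the filter.

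The remaining Frizzled genes stayed under 1.5-fold. Fzd6, known for hair and planar polarity, read 1631 and 1202, at -0.44, with -0.57 on its second probe set. That second probe set, at 78.5 and 52.9, passed the signal filter through the PBS array alone, which fixes its direction. Another, dim probe set was higher, at 38.0 and 66.2, and the mean over all 3 was -0.07. Fzd2 measured 1959 and 1770, at -0.15, and its 2 further probe sets gave -0.33 and -0.45. With median rescaling the Fzd2 ratio was 0.01. Ratios between -0.21 and 0.05 were found for Fzd5, Fzd3, Fzd7 and Fzd9. Fzd4, the receptor for norrin, had the highest ratio of the family, 77.9 with PBS and 103.8 with Nell-1, or 1.33-fold higher, and its dim probe sets disagreed, at 0.93 and -2.25. Neither co-receptor reached 1.5-fold. Lrp5 was at 88.1 and 61.9, a log2 ratio of -0.51. It passed the signal filter through the PBS array alone, so its lower direction follows from the filter. Lrp6 was at 1001 and 1104, a ratio of 0.14, with 0.31 on its second probe set.

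Secreted antagonists above the median signal numbered 7 of 10, with a median log2 ratio of -0.39. Of them, 1 was at least 1.5-fold lower and none higher, beside 7.53% and 4.56% of all genes. With median rescaling their median was -0.24 and none passed. Notum, an enzyme that removes the lipid from Wnt proteins, was 1.62-fold lower on its only probe set, at 124 and 76.6. Sfrp2, a decoy that resembles the Frizzled ligand-binding domain, measured 3463 and 2504, a log2 ratio of -0.47. Sfrp1, a related decoy with 5 probe sets, was lower on each, at 202 and 154 on the brightest (-0.39) and 103 and 44.1 on the second (-1.23). The second passed the signal filter through the PBS array alone, which fixes its direction. The other 3 Sfrp1 probe sets were dim, with Nell-1 signals of 1.32 to 7.10 and ratios down to -3.21.

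Sfrp4 was at -0.16 and Sfrp5, just below the median signal with 65.0 and 50.6, at -0.36. Dkk1, which blocks Lrp5 and Lrp6, measured 124 and 90.2, a log2 ratio of -0.46, and its dim second probe set gave 61.2 and 7.56. Dkk3, a family member that does not act as a classical Lrp inhibitor, was slightly higher on both probe sets, at 0.21 and 0.11. Wif1, which binds Wnt proteins directly, read almost the same on both arrays, at 386 and 389. Dkk2 and Dkk4 were below the median signal on both arrays.

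Of the membrane antagonists, Apcdd1 was lower on each of the 5 probe sets that passed the signal filter. These gave 656 and 506, 596 and 332, 314 and 269, 283 and 170, and 125 and 47.6 with PBS and Nell-1, with log2 ratios from -1.40 to -0.22. The reading at -1.40 (125 and 47.6) passed the filter through the PBS array alone, which fixes its direction. The brightest of the 5, which represents the gene, was at -0.37 and under 1.5-fold. Another, very dim probe set, left out by the filter, went the other way (3.51 and 35.8). Znrf3 measured 676 and 630, a log2 ratio of -0.10, which became 0.05 with median rescaling. Rnf43, its partner ligase, lay below the median signal at 89.5 with PBS and 4.89 with Nell-1, and its ratio is not interpretable at that level.

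Intracellular components and feedback genes all lay above the median signal, with a median log2 ratio of -0.32 over 5 genes. Of these, 1 gene was lower by 1.5-fold or more, where 7.53% of all genes were, and the other 4 lay within it. With median rescaling the median was -0.17 and none of the 5 passed. Ctnnb1, encoding beta-catenin, read 15882 with PBS and 17298 after Nell-1, at 0.12, and a second probe set gave 0.13. The third and dimmest Ctnnb1 probe set gave 317 and 211, at -0.59. Axin1, the scaffold of the destruction complex, went from 1459 to 986, 1.48-fold lower, and so stood just outside the threshold, with -0.13 on its second probe set. Axin2, the most widely used readout of canonical signalling, was at 185 and 149, a log2 ratio of -0.32, and its other probe set was dim (36.0 and 8.03).

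Nkd2 stood just inside the threshold at 1.50-fold lower. Its probe sets gave 399 and 266, 383 and 261, 152 and 94.5, and 182 and 65.0 with PBS and Nell-1, all lower. Nkd1, the paralog that likewise binds Dishevelled, was also lower on all 4 probe sets, at 278 and 236, 280 and 225, 172 and 48.2, and 91.8 and 55.2. Its log2 ratios ran from -1.83 to -0.24, with the smallest difference on the brightest probe set. Both Nkd genes had lower signals in each reading, by amounts that differed widely between probe sets. The dimmer Nkd1 readings, at -1.83 and -0.73, passed the signal filter through the PBS array alone, which fixes their direction. The brighter Nkd1 readings were at -0.24 and -0.32. The transcription factors Lef1 (55.2 and 51.5) and Sp5 (23.9 and 31.2), a zinc-finger target gene, were below the median signal and did not reach 1.5-fold.

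Probe sets of the same gene mostly gave the same direction. Of 17 members that had 2 or more probe sets past the signal filter, all readings were lower in 13, all higher in 2 (Dkk3 and Lrp6), and mixed in 2 (Ctnnb1 and Lgr6). Of the 43 readings in these genes, 5 (in Apcdd1, Fzd6, Nkd1 and Sfrp1) passed the filter through the PBS array alone and 1 (Lgr6) through the Nell-1 array alone, which fixes their direction. Among all 5195 such genes, all readings were lower in 29.6% and all higher in 26.5%. Over single probe sets, 54 of 65 member probe sets above the median signal were lower, where 53.4% of all such probe sets were, and 8 of the 54 passed the filter through the PBS array alone. Probe sets of a gene read the same pair of RNA samples and are not replicates of the treatment.

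**Figure D3:**
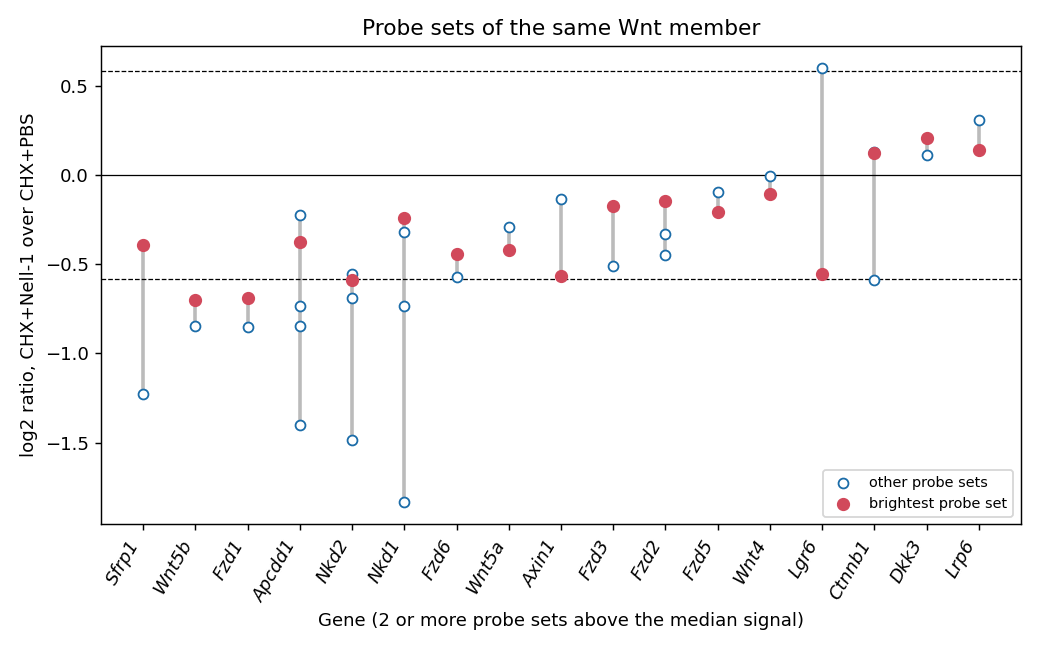
Log2 ratio of CHX+Nell-1 over CHX+PBS for each probe set above the median signal in the 17 members with 2 or more of them, the brightest in red and the others open. Dashed lines mark 1.5-fold. In 13 genes all points lie below 0, and in Sfrp1, Apcdd1, Nkd2 and Nkd1 the largest differences are on other than the brightest probe set. In Sfrp1, Apcdd1 and Nkd1 the probe set with the largest difference passed the signal filter through the PBS array alone, which fixes its direction.

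Other genes of the pathway, which the membership did not include, gave a smaller shift. Of 62 listed, 61 were measured and 49 lay above the median signal, with 37 of these lower and a median log2 ratio of -0.24. Of the 49, 9 were at least 1.5-fold lower, where 7.53% of all genes were. At least 1.5-fold higher were 2, close to the 4.56% of all genes. Rspo3 passed the signal filter through the Nell-1 array alone and Prickle1 (78.1 and 64.1) through the PBS array alone, which fixes their direction. With median rescaling the median was -0.09, with 31 of 49 below 0 and 2 past 1.5-fold in each direction, neither above the shares of 4.70% lower and 8.98% higher among all genes. The 2 genes that were higher both encode R-spondins, the secreted ligands of Lgr receptors. Rspo3 read 59.7 with PBS and 207 after Nell-1 on its brightest probe set, 3.48-fold higher, while a dimmer one gave 28.4 and 23.7. This PBS signal of Rspo3 lay below the median signal, so the higher direction follows from the filter. Rspo2 went from 305 to 594, 1.95-fold higher, but its second probe set went the other way by a wide margin, at 123 and 5.59. The R-spondin readings that were higher are thus from 1 probe set each.

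Genes that were lower spanned several steps of the pathway. Ccn5, a matricellular protein gene, went from 4324 to 2725, 1.59-fold lower on its single probe set. Porcn, which attaches the lipid to Wnt proteins, measured 1113 and 710, 1.57-fold lower, whereas Wls, which carries Wnt proteins to the surface, was at 5321 and 5047. Gsk3a, a kinase of the destruction complex, went from 3222 to 1921, 1.68-fold lower on its only probe set. Its paralog Gsk3b was at 1305 and 1537, a log2 ratio of 0.24. Ror1, an alternative Wnt receptor, was at 265 and 162, 1.63-fold lower, and its dim probe sets disagreed, at 0.55 and -3.11. Tnfrsf19, a reported target, was at 281 and 168 on its brightest probe set, but its second read 110 and 114. The planar polarity genes Prickle2 (381 and 238) and Celsr2 (202 and 127) were in the same range, and a dim second probe set of Celsr2 was higher, at 42.1 and 73.6.

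Groups in this list did not all point the same way. Of 8 genes listed for the destruction complex and its regulators, among them Tnks and Tnks2, 6 were higher, none by 1.5-fold. The other 2 (Gsk3a and Btrc) were at least 1.5-fold lower, and the median was 0.26. Among the 6, Csnk1a1 was lower on 2 of 4 probe sets above the median signal and Apc on 1 of 2. Gsk3b, Amer1, Tnks and Tnks2 were higher on all of theirs. Of 11 nuclear partners 10 were lower, 1 by 1.5-fold (Pygo1, which did not pass after any of the 3 rescalings), with a median of -0.37. The factors Tcf7l1 and Tcf7l2 were at -0.42 and -0.37. Cyclin D1 (Ccnd1), a frequently cited target, read 1592 and 1712, at 0.10.

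The members past 1.5-fold were compared over 9 ways of processing, including the deposited signals. Wnt7a, Wnt7b, Lgr5 and Fzd8 were at least 1.5-fold lower in each of the 9, although for Wnt7a the direction follows from the signal filter. Fzd1 was so in 8 of 9, Wnt9a in 7 of 9, and Fzd10 and Nkd2 in 5 of 9, with the direction of Fzd10 also following from the filter. Notum and Wnt5b, which have shared probe sets alone and so drop out of 1 alternative, were so in 7 of 8. Lgr4 was at least 1.5-fold higher in 8 of 9. The 9 are not separate checks, because some could not change a ratio. The floor value, the mean over probe sets above the median signal and leaving out shared probe sets each returned the deposited ratio for Wnt7a, Wnt7b, Wnt9a, Lgr4, Lgr5, Fzd8 and Fzd10. For Notum the floor value and both means over probe sets did so. For Fzd1 and Nkd2 the floor value and leaving out shared probe sets did so, and for Wnt5b the floor value.

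**Figure D4:**
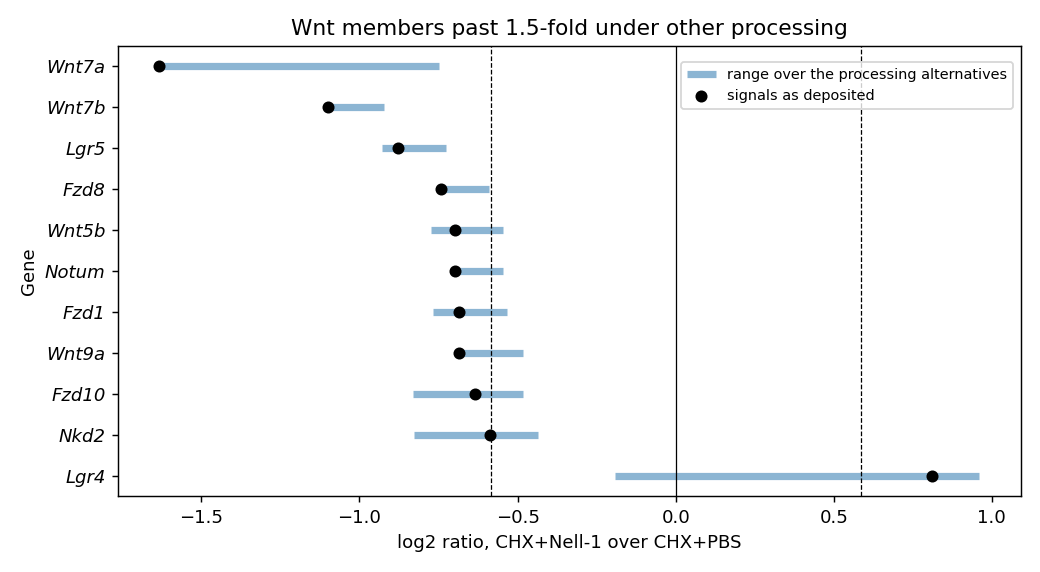
Log2 ratio (horizontal axis) of the 11 Wnt members past 1.5-fold, with signals as deposited as points and the range over the processing alternatives as bars. Dashed lines mark 1.5-fold. The bars of Wnt7a, Wnt7b, Lgr5 and Fzd8 stay left of the lower line, and that of Lgr4 reaches from -0.19 to 0.96.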

How the data were processed

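RNA from ATDC5 cells was hybridised to 1 array per group. The deposited values are intensities, linear signals per probe set, made with Affymetrix Expression Console and MAS5 per the submitters' processing notes (versions: not given in the sources used here). This method scales each array by 1 factor, and the 2% trimmed mean of the deposited signals was 500.0 on both arrays. Detection calls were not used here. Outside 64 control probe sets, 45037 remained; GEO's platform annotation gives 1 symbol to 34945, several to 932 and none to 9160, and no gene was named from the latter groups. All 54 members matched RefSeq by gene ID.

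Ratios were computed in Python 3.11.15 with pandas 2.3.3, with loess from statsmodels 0.14.6 (span 0.3), and were checked on simulated data. With 1 array per group no test was run, and the number of arrays limits the precision. Thresholds were 1.5-fold and the median mean signal over probe sets. Members, lists and rules were chosen with earlier results of these data known. Genes named are members past 1.5-fold, the 10 brightest, those nearest the threshold, those with several probe sets past the signal filter, the brightest of the dim ones, and up to 8 other pathway genes with the largest ratios. Porcn, Gsk3b, Wls, Tcf7l1, Tcf7l2, Ccnd1, Pygo1 and Btrc, and the remaining members, were named after their values were seen. So were Prickle1, Csnk1a1, Apc, Amer1, Tnks and Tnks2. Alternatives were 3 rescalings, an added or floor value at the 25th percentile of signal, means over probe sets, leaving out shared probe sets, other signal filters and a 2-fold threshold.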

Additional observations from a re-analysis of the deposited data

How the results depend on the processing

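Each value rests on 1 array per group, which leaves no replicate to omit, and signals near background limit the dimmer members. No paired analysis was possible because each group has a single sample. The median log2 ratio of the members stayed below 0 in all settings run. It was -0.27 with median rescaling, -0.37 with quantile normalization, -0.38 with the loess trend removed and -0.39 with the 25th percentile of signal added. It was -0.47 as a mean over all probe sets, -0.46 over those above the median signal, -0.43 without shared probe sets, -0.15 for the 13 members above the 75th percentile and -0.37 with no signal filter. The count of members at least 1.5-fold lower went from 10 to 4 with median rescaling, to 2 above the 75th percentile and to 2 at a 2-fold threshold (Wnt7a and Wnt7b). The share of all genes that were lower went from 7.53% to 4.70%, 1.96% and 2.33% in the same order. The member count was 15 with the mean over all probe sets, 13 with the mean over those above the median signal and 15 with no filter. In these settings 11.2%, 7.62% and 19.0% of all genes were lower by as much. The count of higher members went from 1 to 2 with the mean over all probe sets (Wnt6 and Znrf3), to 4 with no filter and to 0 at 2-fold. The share of all genes that were higher went from 4.56% to 7.66%, 13.1% and 0.784%. By the mean over all probe sets Lgr4 turned to -0.19, through its dim second probe set. The cause of the other moves was not tested.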
